A study of Mus musculus with 7 samples.

Results

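The Hippo pathway genes described here are the mRNAs of the kinases LATS1 and LATS2, their scaffold SAV1, the coactivators YAP (Yap1) and TAZ (Wwtr1), the DNA-binding partners TEAD1 to TEAD4, and the TEAD corepressor VGLL4. The 10 genes were chosen by symbol, and all 10 are among the 17404 genes of the expression table and passed the filter on low values. None of the 10 passed the test over all genes for a difference between neonatal BALB/cByJ and BALB/cJ ventricle. Sav1, Lats1, Lats2 and Vgll4 had means that differed by -15.9% to -20.0% in BALB/cByJ, without passing the test. The means of the coactivators and the TEAD genes differed by -7.22% to 6.76%. Of the genes listed as YAP and TEAD targets, Aurka, which encodes the mitotic kinase Aurora A, was lower in BALB/cByJ, and Ccn2, a classical target, narrowly missed the threshold.

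The 3 BALB/cByJ libraries and the 4 BALB/cJ libraries were each made from total RNA of ventricles pooled from 3 to 4 mice at postnatal day 4 (P4), an age at which many cardiomyocytes are in S-phase. The sources do not fully agree on the number of hearts in a pool, and that of the labels is given. No treatment is named, and both are inbred substrains of BALB/c. BALB/cByJ carries the natural deletion that removes function of Cyth1, which encodes an exchange factor for ARF GTPases, and BALB/cJ carries a retroviral insertion in Zhx2. The strains differ at other places in the genome as well, so that a difference between them cannot be assigned to Cyth1, and the study asked whether such differences relate to cardiomyocyte polyploidy. Expression is given as a value that, from its form, was taken to be normalized for sequencing depth and transcript length, and comparisons of levels between genes rest on this. The number of reads per library is unknown.

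In the Hippo pathway, the kinases MST1 and MST2 (Stk4 and Stk3), with SAV1, phosphorylate and activate LATS1 and LATS2 with their MOB1 cofactors. LATS in turn phosphorylates YAP and TAZ, which are then held in the cytoplasm or degraded, and unphosphorylated YAP and TAZ enter the nucleus and activate transcription with TEAD factors. In the mouse heart, loss of Sav1 or activation of YAP prolongs cardiomyocyte proliferation, and VGLL4 competes with YAP for TEAD. Most of this control acts on phosphorylation and location of the proteins, which mRNA levels do not show.

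TEAD factors bind DNA at the letters GGAATG, which read CATTCC on the other strand. These letters, searched on both strands (the forms cannot share a base), were found between 250 bases before and 50 bases after a RefSeq gene start (GRCm38.p6) for 6 of the 8 Hippo genes with a promoter entry, and for 16.6% of all 27025 genes. They were absent from these windows for Tead2 and Lats1, and Tead1 and Tead4 had no entry. A match is a description of the letters only. The stretches below show where the letters lie (in capitals) in the promoters of the coactivators, of 1 TEAD gene, of Sav1 and Vgll4, and of the target genes Ccn1, Ankrd1, Amotl2 and Crim1, written 5′ to 3′ on the strand of the gene.
Yap1: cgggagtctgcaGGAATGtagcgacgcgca
Wwtr1: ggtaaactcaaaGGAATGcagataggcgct
Tead3: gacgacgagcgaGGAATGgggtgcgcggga
Sav1: cggctttcccagCATTCCcagcggcgcggg
Vgll4: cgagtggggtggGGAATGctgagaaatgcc
Ccn1: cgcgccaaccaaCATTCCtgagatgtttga
Ankrd1: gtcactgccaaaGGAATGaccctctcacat
Amotl2: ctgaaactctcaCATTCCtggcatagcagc
Crim1: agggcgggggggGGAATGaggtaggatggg
On GRCm38.p6 these are chr9:8004720-8004749 for Yap1, chr3:57576029-57576058 for Wwtr1, chr17:28350970-28350999 for Tead3, chr12:69987091-69987120 for Sav1, chr6:114969268-114969297 for Vgll4, chr3:145650071-145650100 for Ccn1 and chr19:36120037-36120066 for Ankrd1, all on the minus strand. Those of Amotl2 (chr9:102717727-102717756) and Crim1 (chr17:78200157-78200186) are on the plus strand. The letters begin 141 bases before the start of Yap1, 136 or 170 bases before the 2 starts of Wwtr1, 106 bases before that of Sav1 and 82 bases before that of Vgll4. In Lats2 they lie just after the start and are not shown. Among the target genes 8 of the 20 with a promoter entry (40.0%) held the letters. The target Aurka had an entry without them, and Ccn2 had no entry.

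The labels of the libraries were checked by Cyth1, whose expression values were 0.10 to 0.19 in the BALB/cByJ pools and 25.77 to 26.98 in the BALB/cJ pools. Ventricular myosin light chain Myl2 was at 18096 or more in every library, and the markers of lung epithelium, brown fat and nerve that define those tissues (Scgb1a1, Ucp1, Adipoq and Th) were at or near 0. The summed T cell and thymus markers were 0.25 to 0.32 in BALB/cByJ, against 0.64, 0.34, 8.05 and 2.55 in BALB/cJ libraries 1 to 4. Those of skeletal muscle were 6.65 to 9.09 in BALB/cByJ, against 5.54, 5.37, 23.78 and 4.79 in BALB/cJ. Erythroid markers summed to 2584 to 3252 in BALB/cByJ, against 3786 to 8428 in BALB/cJ. The part of these markers in the values of the Hippo genes was not tested. The summed level of 4 Y-linked genes was 80.2 to 128.3 in BALB/cByJ pools and 0.04 to 37.6 in BALB/cJ pools. All 4 were called higher in BALB/cByJ by limma. The share of male pups in a pool is not given, and strain and this share cannot be fully told apart. Of 7 smooth muscle and pericyte markers, 2 were called lower in BALB/cByJ (Acta2 in 11 and Cnn1 in 13 of the 15 alternatives too). The 7 summed to 529.9 to 610.6 in BALB/cByJ, against 782.2 to 1146 in BALB/cJ. Acta2 was the largest part of each sum (306.37 to 339.42 against 495.06 to 885.4). Myh11, Tagln, Pdgfrb and Rgs5 overlapped between the strains. In ventricle as a whole, fewer cells of a type and less RNA per cell cannot be told apart.

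The Hippo genes differed widely in level. Wwtr1 was the most abundant, with a mean value of 36.4 over the 7 libraries, followed by Tead2 (33.9), Yap1 (30.3), Sav1 (26.4), Tead1 (26.4), Vgll4 (18.6), Lats2 (15.5), Tead3 (8.81), Lats1 (6.55) and Tead4 (1.45). From Tead1 downward this order held in all 7 libraries for every pair of neighbors. Among the upper genes it did not: Tead2 was above Yap1 in 4 libraries and Sav1 above Tead1 in 3, so these neighbors do not differ beyond the spread between pools.

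**Figure D1:**
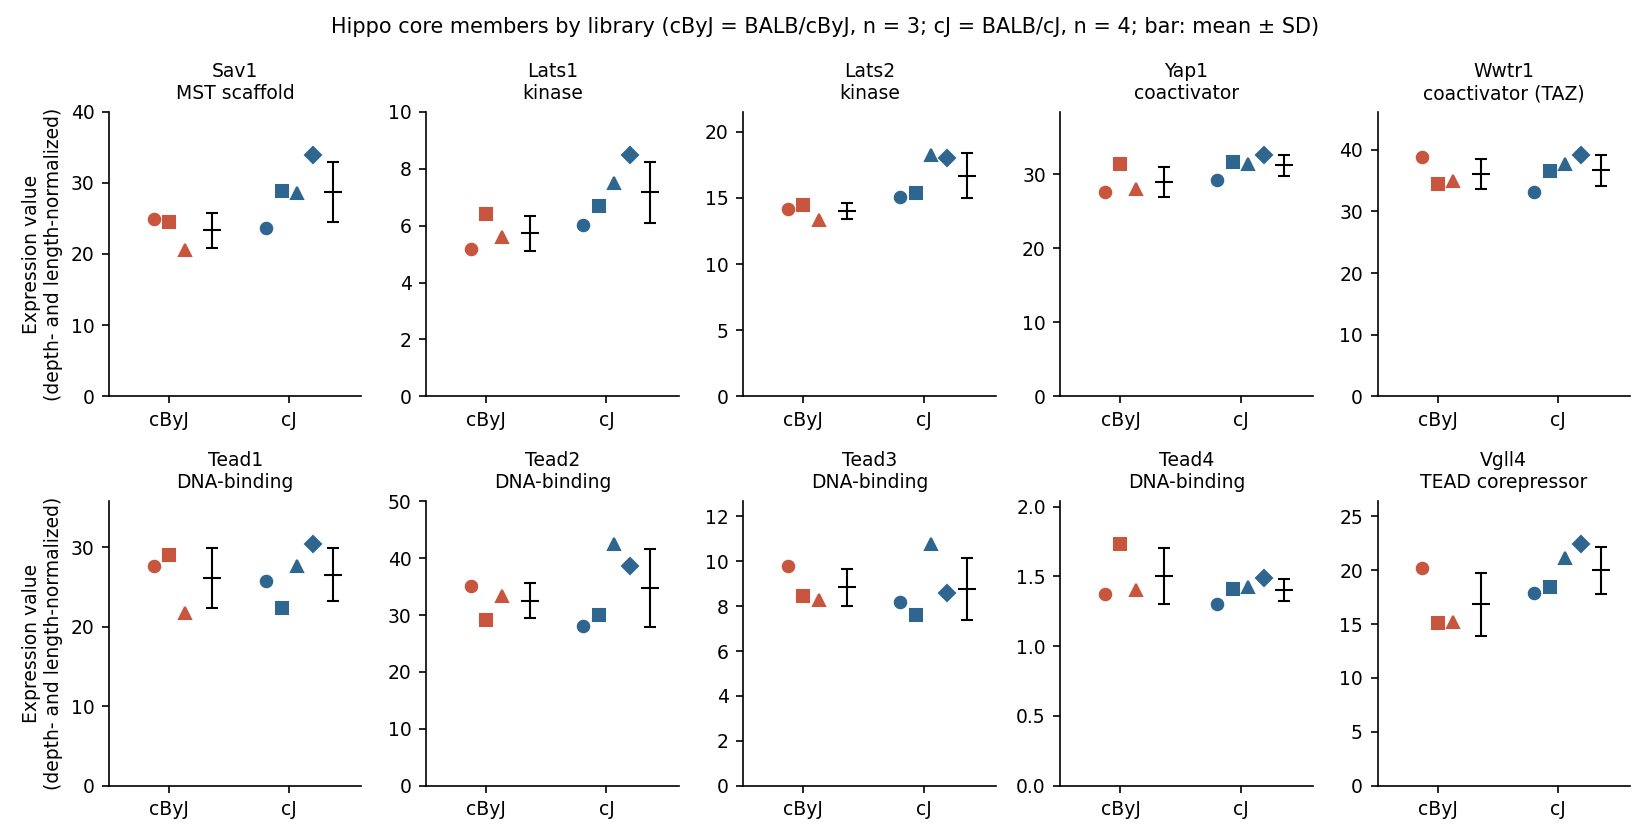
Expression value (normalized for depth and length, linear axis from 0) of each of the 10 Hippo genes in BALB/cByJ (red, n = 3) and BALB/cJ (blue, n = 4), 1 point per library, with the mean ± SD beside the points. Lats2 is the only gene whose BALB/cByJ points (13.37 to 14.50) all lie below its BALB/cJ points (15.06 to 18.25).

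The strains were set against each other by limma on log2(value + 1), over 12715 genes with a mean value of at least 0.5, with calls made where the Benjamini-Hochberg adjusted p was under 0.05. The added 1 understates the change of low genes such as Tead4, the more so the nearer a gene lies to the filter. Of the 10 Hippo genes 0 were called by limma, against 1.65% of all tested genes. Of the 10, 3 had an unadjusted p under 0.05 from limma and all 3 were lower in BALB/cByJ, against 13.3% of all tested genes lower at that level. In 1 of 10 the strains did not overlap with BALB/cByJ lower, against 12.6% of all tested genes. The log2 fold change was below 0 for 8 of the 10 (median -0.09), as for 65.2% of all tested genes (median -0.07), but for 6 of the 10 with quantile normalization and for 5 with TMM scaling. When the Y-linked sum was added as a covariate, all 10 lay below 0 (median -0.28, against -0.12 for all tested genes). No Hippo gene was called in any of the alternative settings or without any single library, and the lowest adjusted p among these 149 values was 0.108.

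Sav1 encodes Salvador, the scaffold that joins the MST kinases to LATS. It lies on chromosome 12 of GRCm38.p6 (69965009 to 69988141, gene ID 64010). Expression values of Sav1 were 24.93, 24.43 and 20.54 in BALB/cByJ libraries 1 to 3, against 23.65, 28.78, 28.51 and 33.90 in BALB/cJ libraries 1 to 4. BALB/cJ 1 lay among the BALB/cByJ pools and the other BALB/cJ pools above them. Sav1 averaged 23.3 ± 2.40 across the BALB/cByJ pools and 28.7 ± 4.19 across the BALB/cJ pools (SD, n = 3 and n = 4), and its log2 fold change was -0.28 (standard error, SE, 0.12, with a 95% interval of -0.55 to -0.023). The unadjusted p was 0.0349 and the adjusted p was 0.233 from limma (0.108 to 0.595 over the alternatives).

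Lats2 (chromosome 14, 57689662 to 57746212, gene ID 50523) was the more abundant of the genes for the kinases that phosphorylate YAP and TAZ. It was expressed at 14.18, 14.50 and 13.37 in BALB/cByJ, against 15.06, 15.37, 18.25 and 18.03 in BALB/cJ. The strains did not overlap, and BALB/cJ itself fell into a lower pair (libraries 1 and 2) and a higher pair (3 and 4). Lats2 averaged 14.0 ± 0.582 across the BALB/cByJ pools and 16.7 ± 1.70 across the BALB/cJ pools (SD, n = 3 and n = 4), and its log2 fold change was -0.23 (SE 0.11, 95% interval -0.46 to -0.0041, limma adjusted p = 0.263). With TMM scaling the log2 fold change was -0.15.
Lats1 (chromosome 10, 7681200 to 7716461, gene ID 16798) was expressed at 5.19, 6.40 and 5.6 in BALB/cByJ, against 6.01, 6.67, 7.5 and 8.48 in BALB/cJ. BALB/cByJ 2 lay above BALB/cJ 1, and the strains otherwise kept apart. Its log2 fold change was -0.27 (SE 0.13, 95% interval -0.54 to -0.0060, limma adjusted p = 0.261). Lats2 made up 71.0% ± 1.97 of the summed LATS values in BALB/cByJ and 70.0% ± 1.52 in BALB/cJ (SD, n = 3 and n = 4).

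Yap1 encodes the coactivator that LATS inhibits, and lies on chromosome 9 (7931999 to 8004638, gene ID 22601). Its expression was 27.57, 31.35 and 27.97 in BALB/cByJ, against 29.23, 31.65, 31.36 and 32.63 in BALB/cJ. BALB/cByJ 2 matched the middle of BALB/cJ, and the strains overlapped. Yap1 averaged 29.0 ± 2.08 across the BALB/cByJ pools and 31.2 ± 1.43 across the BALB/cJ pools (SD, n = 3 and n = 4), and its log2 fold change was -0.11 (95% interval -0.31 to 0.10, limma adjusted p = 0.583).
Wwtr1, on chromosome 3 (57455644 to 57575910, gene ID 97064), encodes TAZ, the paralog of YAP. Expression of Wwtr1 was 38.83, 34.40 and 34.93 in BALB/cByJ, against 33.14, 36.54, 37.72 and 39.14 in BALB/cJ. Both strains covered nearly the same range, and the log2 fold change of Wwtr1 was -0.022 (95% interval -0.24 to 0.19, limma adjusted p = 0.931) and 0.059 with TMM scaling. Wwtr1 made up 55.4% ± 3.08 of the summed coactivator values in BALB/cByJ and 54.0% ± 0.723 in BALB/cJ (SD, n = 3 and n = 4). The 95% interval of the fold of BALB/cByJ over BALB/cJ, on the log2(value + 1) scale, ran from 0.805 to 1.07 for Yap1 and from 0.850 to 1.14 for Wwtr1.

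The TEAD genes encode the factors that bring YAP and TAZ to DNA. Tead2 (chromosome 7, 45215792 to 45233468, gene ID 21677), known in mouse for its high expression in embryos, was expressed at 35.13, 29.13 and 33.41 in BALB/cByJ, against 28.12, 30.09, 42.48 and 38.64 in BALB/cJ. The BALB/cByJ pools lay inside the range of BALB/cJ, where libraries 3 and 4 were high. Its log2 fold change was -0.079 (SE 0.14, limma adjusted p = 0.790) and 0.0020 with TMM scaling.
Tead1 (chromosome 7, 112679356 to 112906784, gene ID 21676), which is required for heart development in mouse embryos, was expressed at 27.68, 28.97 and 21.79 in BALB/cByJ, against 25.80, 22.40, 27.60 and 30.39 in BALB/cJ. BALB/cByJ 3 was the lowest of the 7 libraries and BALB/cJ 4 the highest, with the strains interleaved. Its log2 fold change was -0.023 (SE 0.12, limma adjusted p = 0.941), 0.021 with quantile normalization and 0.098 without BALB/cByJ 3.
Tead3 (chromosome 17, 28331671 to 28350805, gene ID 21678) was expressed at 9.79, 8.46 and 8.29 in BALB/cByJ, against 8.17, 7.62, 10.76 and 8.57 in BALB/cJ, and its log2 fold change was 0.017 (95% interval -0.25 to 0.28, limma adjusted p = 0.958). Tead4 (chromosome 6, 128227143 to 128300813, gene ID 21679), a factor of the trophectoderm in mouse embryos, was scarce, at 1.37, 1.73 and 1.40 in BALB/cByJ, against 1.30, 1.41, 1.42 and 1.49 in BALB/cJ. Its log2 fold change was 0.053 (limma adjusted p = 0.836) and rested on BALB/cByJ 2, without which it was -0.011. Neither gene separated the strains.
The order of the TEAD genes by their share of the summed values was the same in the mean of each strain. Tead2 made up 47.2% ± 4.42 of the summed TEAD values in BALB/cByJ and 48.4% ± 3.02 in BALB/cJ (SD, n = 3 and n = 4), and Tead1 made up 37.8% ± 4.43 and 37.3% ± 3.04. Tead3 contributed 12.8% ± 0.424 in BALB/cByJ and 12.3% ± 1.02 in BALB/cJ, and Tead4 2.18% ± 0.341 and 1.99% ± 0.242.

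Vgll4 encodes a corepressor that occupies the YAP-binding surface of TEAD. It lies on chromosome 6 (114860621 to 114970007, gene ID 232334) and was expressed at 20.17, 15.09 and 15.21 in BALB/cByJ, against 17.91, 18.47, 21.17 and 22.42 in BALB/cJ. BALB/cByJ 1 lay among the BALB/cJ pools, and the other BALB/cByJ pools lay below all of them. Vgll4 averaged 16.8 ± 2.90 across the BALB/cByJ pools and 20.0 ± 2.16 across the BALB/cJ pools (SD, n = 3 and n = 4), and its log2 fold change was -0.24 (SE 0.12, 95% interval -0.51 to 0.020, limma adjusted p = 0.310).

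**Figure D2:**
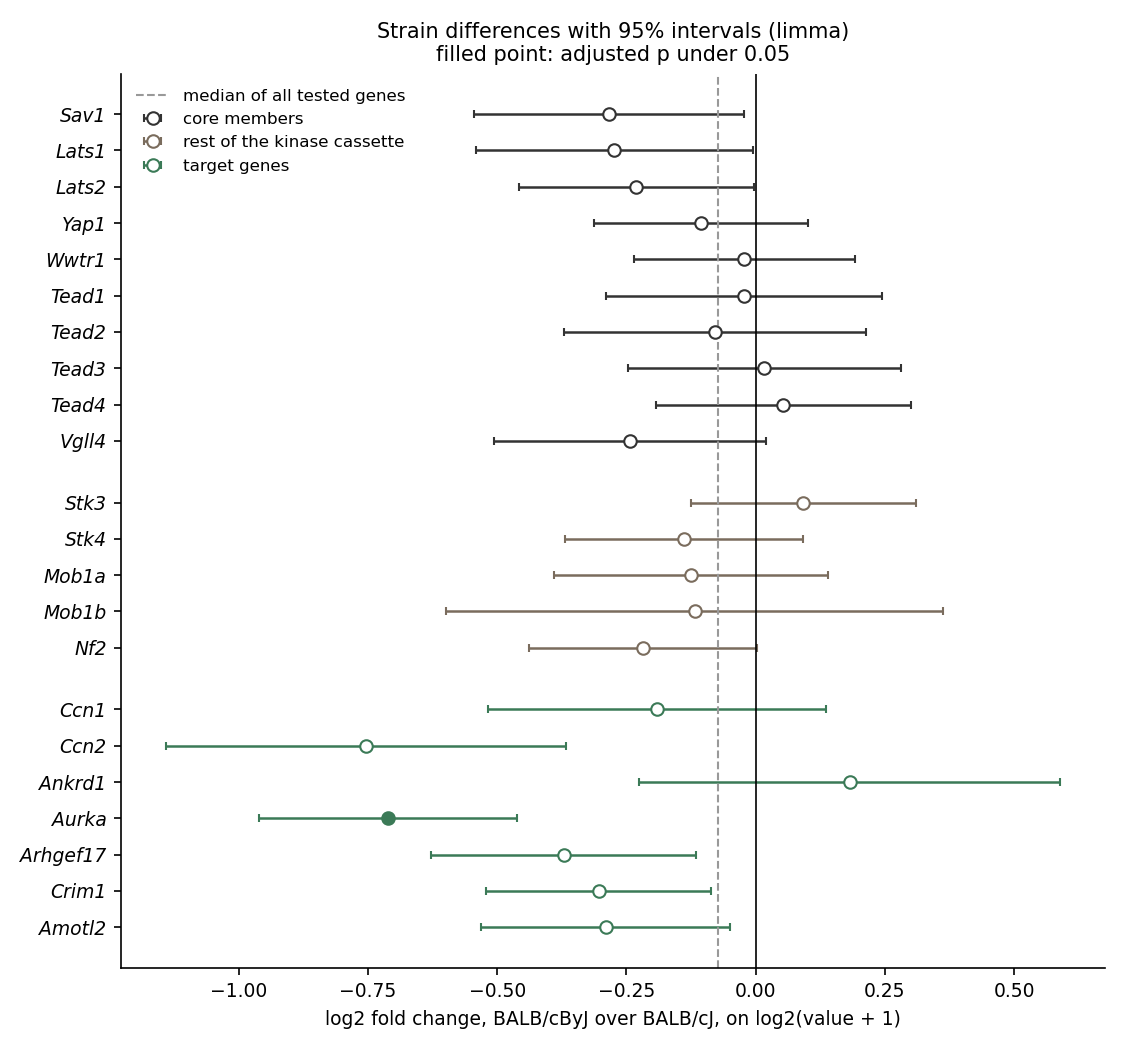
Log2 fold change of BALB/cByJ over BALB/cJ on log2(value + 1) with its 95% interval from limma, for the 10 Hippo genes (black), the rest of the kinase cassette with Nf2 (brown) and named targets (green). The filled point marks an adjusted p under 0.05 (Aurka, -0.71), and the dashed line is the median of all tested genes (-0.07).

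Ratios between genes of the same library do not change when a library is scaled by a factor, and were taken as a description with no test. The summed LATS values divided by the summed YAP and TAZ values were 0.292, 0.318 and 0.302 in BALB/cByJ, against 0.338, 0.323, 0.373 and 0.369 in BALB/cJ. The strains did not overlap, although BALB/cByJ 2 and BALB/cJ 2 lay close together. Sav1 divided by the same sum was 0.376, 0.372 and 0.327 in BALB/cByJ, against 0.379, 0.422, 0.413 and 0.472 in BALB/cJ, again without overlap and with BALB/cJ 1 just above the BALB/cByJ pools. Vgll4 divided by that sum was 0.304, 0.230 and 0.242 in BALB/cByJ, against 0.287, 0.271, 0.307 and 0.312 in BALB/cJ, and overlapped through BALB/cByJ 1. The summed TEAD values divided by that sum averaged 1.06 ± 0.0457 in BALB/cByJ and 1.05 ± 0.123 in BALB/cJ (SD, n = 3 and n = 4). As single genes, 12.6% of all tested genes did not overlap with BALB/cByJ lower. The share for ratios was not computed, so how unusual their lack of overlap is remains unknown.

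**Figure D3:**
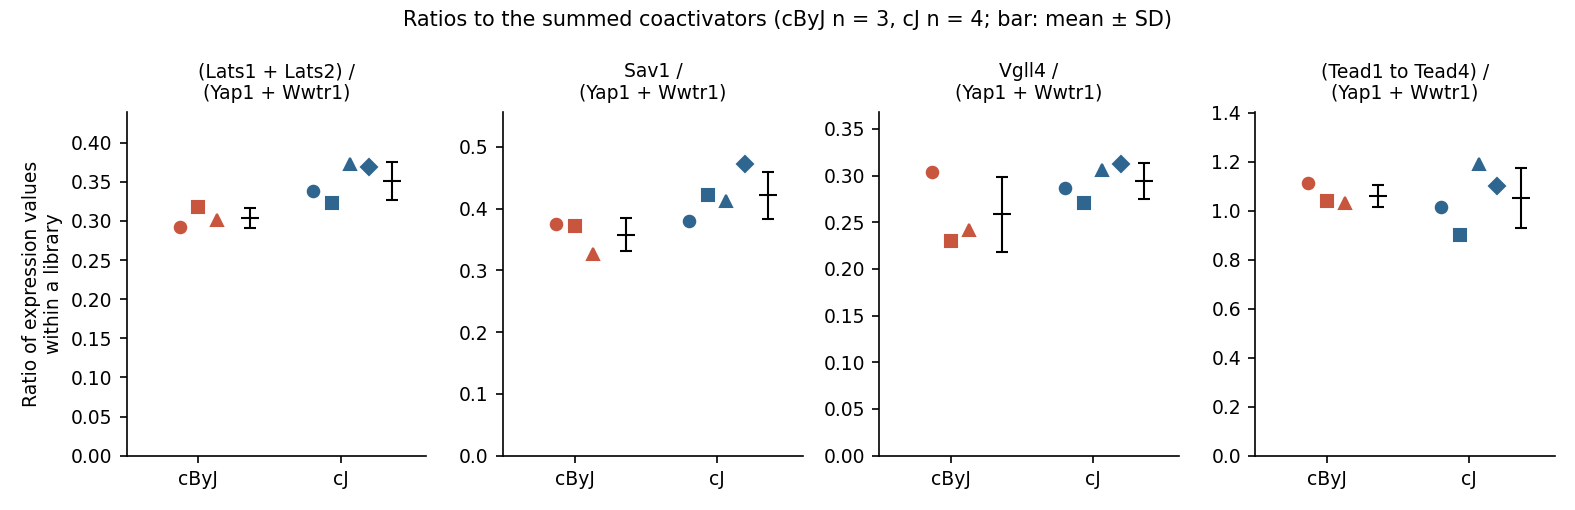
Ratio of expression values within a library (linear axis from 0), 1 point per library, for BALB/cByJ (red, n = 3) and BALB/cJ (blue, n = 4), with the mean ± SD. The ratios of LATS (0.304 in BALB/cByJ and 0.351 in BALB/cJ on average) and of Sav1 (0.358 and 0.422) to the coactivators do not overlap between the strains, by narrow margins. Those of Vgll4 and TEAD overlap.

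The libraries of a strain differed from each other across these genes. The median deviation of the Hippo genes from their strain mean was 0.094, 0.058 and -0.059 in BALB/cByJ libraries 1 to 3, and -0.14, -0.092, 0.065 and 0.14 in BALB/cJ libraries 1 to 4, in log2(value + 1) units. For all tested genes it lay between -0.0074 and 0.025 in BALB/cByJ and between -0.050 and 0.037 in BALB/cJ. Thus BALB/cByJ 3 held no highest value of its strain, while BALB/cJ 4 held the highest of its strain for 7 of the 10 genes and BALB/cJ 1 the lowest for 8. Without BALB/cJ 4 the median log2 fold change of the Hippo genes was -0.054, with 6 of 10 below 0, and without BALB/cJ 1 it was -0.15, with 9 of 10 below 0.
With strain means removed, Yap1 and Tead4 varied together most closely over the 7 libraries (Pearson's r = 0.98), followed by Wwtr1 with Vgll4 (0.91) and Yap1 with Lats1 (0.85). The LATS genes gave r = 0.81 and Yap1 with Wwtr1 0.17. These correlations describe 7 libraries that share pools and scaling, and were not tested. Of 12714 other genes, those whose values followed Yap1 most closely over the libraries were Wdcp (r = 0.99), Smndc1, a splicing factor gene (0.99), and Cgas, which encodes a sensor of cytosolic DNA (0.98). Those nearest to Tead1 were Mbd5 (0.99), Hivep1 (0.99) and Tbl1x (0.98).

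The rest of the pathway was described by lists of genes, 25 of them acting upstream of LATS, of which 0 were called by limma in either direction. Log2 fold changes were below 0 for 20 of the 25 (18 with quantile normalization, 19 with TMM scaling), with a median of -0.14 against -0.07 for all tested genes, and 5 had an unadjusted p under 0.05, all lower in BALB/cByJ, against 13.3% of all tested genes. Over all tested genes 65.2% were below 0 and 1.65% were called. Of the MST kinases, Stk3 (MST2) was expressed at 14.90, 12.26 and 13.95 in BALB/cByJ, against 12.81, 12.65, 13.02 and 12.54 in BALB/cJ (log2 fold change 0.092, limma adjusted p = 0.656). Stk4 (MST1) was expressed at 7.5, 8.25 and 7.44 in BALB/cByJ, against 8.96, 7.75, 8.36 and 9.41 in BALB/cJ (-0.14, adjusted p = 0.509). Neither kinase gene separated the strains. The LATS cofactors Mob1a and Mob1b differed by -0.13 and -0.12 (adjusted p of 0.616 and 0.813), and Mob1b ranged from 6.26 to 12.41 within BALB/cByJ alone. Nf2 encodes merlin, which brings LATS to the membrane. It was expressed at 40.56, 42.17 and 34.50 in BALB/cByJ, against 42.66, 44.93, 45.15 and 49.19 in BALB/cJ, without overlap but with BALB/cByJ 2 close to BALB/cJ 1 (-0.22, adjusted p = 0.280).
Among the upstream genes with the smallest p was Fat1, an atypical cadherin, at 4.02, 4.53 and 3.55 in BALB/cByJ, against 6.61, 5.04, 5.65 and 5.97 in BALB/cJ (log2 fold change -0.44, limma adjusted p = 0.0838). Frmd6, a FERM protein gene, was at 12.72, 13.48 and 12.15 in BALB/cByJ, against 15.70, 15.67, 15.66 and 18.69 in BALB/cJ (-0.34, adjusted p = 0.115). In both genes all BALB/cByJ pools lay below all BALB/cJ pools. Rassf5, which encodes a partner of MST1, differed by -0.35 and Map4k2, a kinase gene of the MAP4K family that can act on LATS, by -0.25 (adjusted p of 0.220 and 0.217).

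Of 15 genes that inhibit the LATS step, namely LIM proteins, subunits of the STRIPAK phosphatase complex and DLG5, 0 were called by limma. Their median was -0.058, with 10 of 15 below 0 (8 with quantile normalization, 7 with TMM scaling). Among all tested genes the median was -0.07, 65.2% were below 0 and 1.65% were called. Among these, the log2 difference of Dlg5 was -0.26 (adjusted p = 0.250), that of Sike1 -0.19 (0.343) and that of Ajuba, a LIM protein gene, -0.21 (0.354).
Of 19 genes for proteins that bind YAP and TAZ or control their turnover, 0 were called by limma, with a median of -0.061 and 14 of 19 below 0 (10 with quantile normalization, 9 with TMM scaling). Here too the comparison is 1.65% called, a median of -0.07 and 65.2% below 0 among all tested genes. Amotl2 encodes an angiomotin that holds YAP in the cytoplasm and is itself a YAP target. It was expressed at 20.34, 21.66 and 19.35 in BALB/cByJ, against 29.79, 21.58, 25.29 and 24.81 in BALB/cJ (log2 fold change -0.29, adjusted p = 0.196). Only BALB/cByJ 2 lay above a BALB/cJ pool, and by less than 0.1. The 14-3-3 genes Ywhah and Sfn differed by -0.25 (adjusted p = 0.221) and -0.29 (0.251), and the casein kinase gene Csnk1d by -0.25 (0.247). Sfn lay near the filter, with means of 0.38 in BALB/cByJ and 0.68 in BALB/cJ. Over the alternatives the log2 fold change of Sfn ran from -0.73 to -0.21.
Of 12 other partners of TEAD and YAP, Vgll1, Vgll2, Runx1 and Runx2 were below the filter, and 0 of the 8 tested were called by limma. All 8 were below 0 (median -0.094), but 4 of 8 with quantile normalization and 6 of 8 with TMM scaling. Again, 65.2% of all tested genes were below 0 (median -0.07) and 1.65% were called. Wbp2, a coactivator that binds YAP, differed by -0.29 (adjusted p = 0.207), the cardiac T-box factor gene Tbx5 by -0.23 (0.290) and Smad3, which transmits TGF-beta signals, by -0.10 (0.640).

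**Figure D4:**
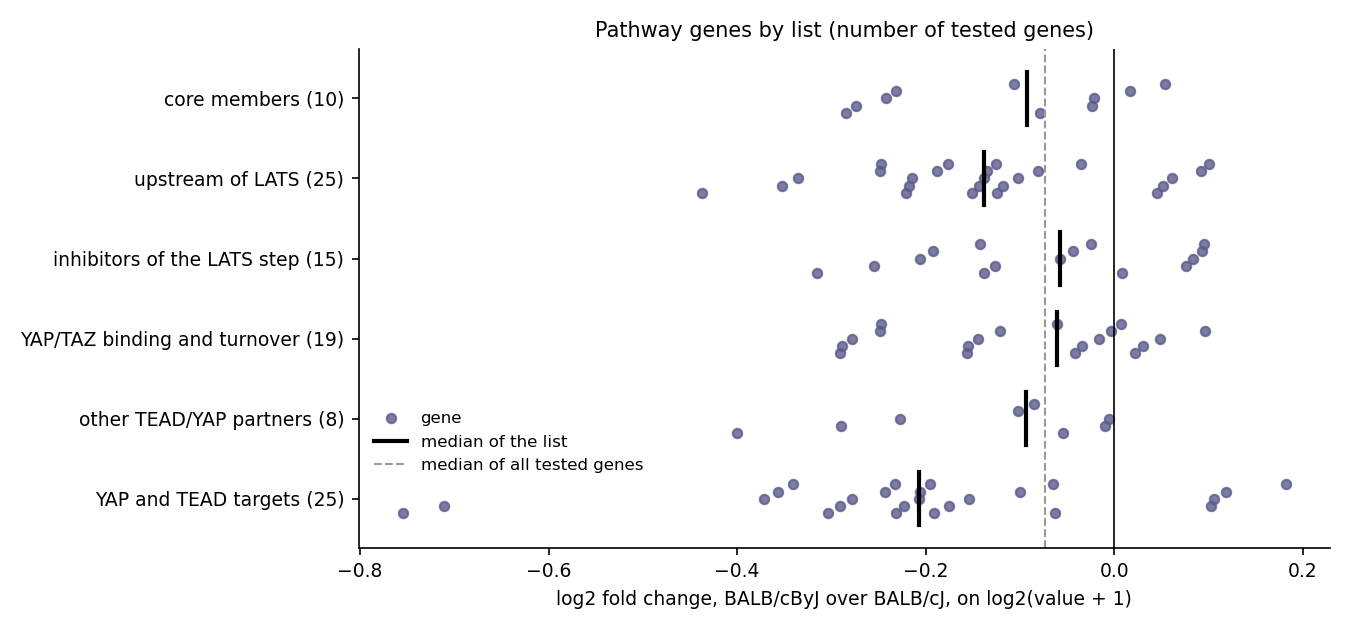
Log2 fold change of BALB/cByJ over BALB/cJ for every tested gene of each list, 1 point per gene, with the median of the list (black bar) and of all tested genes (dashed line, -0.07). List medians run between -0.058 and -0.21, the lowest being that of the target genes, and some genes stand in more than 1 list.

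Of 27 genes listed as direct or classical targets of YAP and TEAD, 25 were tested, and 1 (Aurka) was called lower by limma and 0 higher, against 0.881% of all tested genes called lower. Log2 fold changes were below 0 for 21 of the 25 (20 with quantile normalization, 19 with TMM scaling), with a median of -0.21, which was -0.13 and -0.15 under those scalings. Over all tested genes 65.2% were below 0, with a median of -0.07. Of the 25, 9 had an unadjusted p under 0.05 from limma, all lower in BALB/cByJ, against 13.3% of all tested genes, and 7 had no overlap with BALB/cByJ lower, against 12.6% of all tested genes. The list was chosen with earlier results of these data known, so these counts are a description only. The 9 include Lats2 and Amotl2, which were also counted in other lists above. The count of called targets was 2 without BALB/cByJ 3 and 2 without BALB/cJ 4.
Aurka drives entry into mitosis and spindle assembly. Its values were 12.81, 16.70 and 17.12 in BALB/cByJ, against 26.74, 24.51, 24.03 and 28.49 in BALB/cJ, with every BALB/cByJ pool well below every BALB/cJ pool. Aurka averaged 15.5 ± 2.38 across the BALB/cByJ pools and 25.9 ± 2.07 across the BALB/cJ pools (SD, n = 3 and n = 4), and its log2 fold change was -0.71 (SE 0.12, limma adjusted p = 0.00715). The call was kept without any single library, and was lost without the filter on low values (adjusted p = 0.0595), when the Y-linked sum was added as a covariate (0.0973) and in the 6 libraries of shared number with the number as a block (0.0971). Of 8 proliferation markers 0 were called by limma and 7 were below 0, with a summed level of 168.3, 224.4 and 287.2 in BALB/cByJ, against 285.9, 243.8, 242.6 and 286.0 in BALB/cJ. Their part in the difference of Aurka was not tested.
Ccn2, listed in the table under its older name Ctgf (gene ID 14219), encodes connective tissue growth factor. It was expressed at 32.70, 47.75 and 54.18 in BALB/cByJ, against 81.97, 67.65, 99.10 and 56.86 in BALB/cJ. The strains did not overlap, with BALB/cByJ 3 close to BALB/cJ 4. Ccn2 averaged 44.9 ± 11.02 across the BALB/cByJ pools and 76.4 ± 18.3 across the BALB/cJ pools (SD, n = 3 and n = 4), and its log2 fold change was -0.75 (SE 0.18, 95% interval -1.14 to -0.37, limma adjusted p = 0.0510). It was called with a filter at a mean of 2 (adjusted p = 0.0380) and without BALB/cJ 4 (-0.88, adjusted p = 0.0408, or 0.0429 with the replicate number as a block among those 6 libraries), and over all alternatives the adjusted p ran up to 0.288. The smooth muscle and pericyte markers, given above, were lower in sum in the same pools, with 6 of 7 below 0. None of the 3 BALB/cByJ sums reached a BALB/cJ sum, but Acta2 was the largest part of each. Myh11, Tagln, Pdgfrb and Rgs5 overlapped between the strains. The part of these markers in the difference of Ccn2 was not tested.

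**Figure D5:**
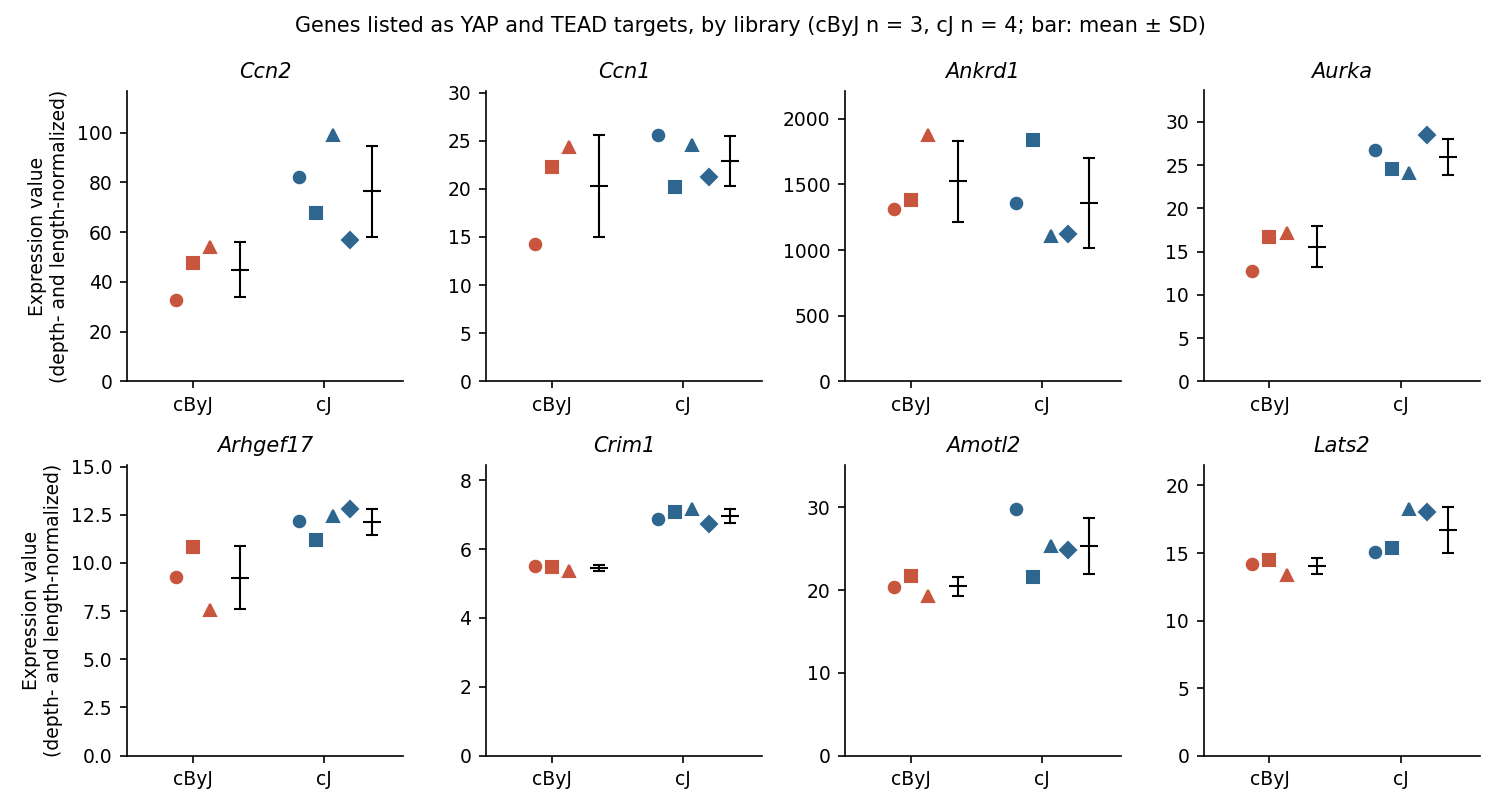
Expression value (linear axis from 0) of 8 genes listed as YAP and TEAD targets, 1 point per library, in BALB/cByJ (red, n = 3) and BALB/cJ (blue, n = 4), with the mean ± SD. Aurka, Ccn2, Arhgef17, Crim1 and Lats2 separate the strains with BALB/cByJ lower, while Ccn1, Ankrd1 and Amotl2 overlap.

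The classical targets Ccn1 and Ankrd1 did not separate the strains. Ccn1 (listed as Cyr61, gene ID 16007), a matricellular protein gene, was expressed at 14.29, 22.29 and 24.34 in BALB/cByJ, against 25.60, 20.16, 24.51 and 21.20 in BALB/cJ, where BALB/cByJ 1 alone stood low. Its log2 fold change was -0.19 (95% interval -0.52 to 0.14, limma adjusted p = 0.522) and 0.032 without that library.
Ankrd1, a stress-responsive cardiac ankyrin repeat gene, was far more abundant, at 1313, 1382 and 1877 in BALB/cByJ, against 1361, 1839, 1104 and 1119 in BALB/cJ. High and low pools occurred in both strains (log2 fold change 0.18, 95% interval -0.22 to 0.59, limma adjusted p = 0.637).
Crim1, which encodes a membrane protein that binds BMP ligands, was among the least variable, at 5.52, 5.48 and 5.35 in BALB/cByJ, against 6.88, 7.09, 7.16 and 6.72 in BALB/cJ. The gap between the strains exceeded the range within each, and the log2 fold change of -0.30 did not pass over all genes (limma adjusted p = 0.141). Arhgef17, a guanine nucleotide exchange factor gene, was expressed at 9.28, 10.83 and 7.57 in BALB/cByJ, against 12.15, 11.18, 12.41 and 12.79 in BALB/cJ (-0.37, adjusted p = 0.125).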

How the data were processed

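RNA-Seq libraries of 3 BALB/cByJ and 4 BALB/cJ ventricle pools were made and sequenced by BGI Genomics. A single table was deposited by the authors, with 17404 genes and for each library a signal taken from its form to be scaled for depth and transcript length (FPKM or TPM). The submitters' processing notes name the build mm10, and the aligner was not given in the sources used. As the table holds no counts, depth is unknown and error was judged from the spread of the pools alone. The labels do not say that pools came from separate litters, so p-values measure the spread between these pools. The values of a library summed to 543000 to 629000 (rounded).

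Values were taken as log2(value + 1), and 12715 genes of mean 0.5 or more entered a fit of strain alone in limma 3.58.1 (R 4.3.3), with variance following the mean. Two-sided p-values from limma's moderated test were adjusted over all tested genes (Benjamini-Hochberg). The method was tested on simulated data. Summaries and figures were made in Python 3.11.15 (pandas 2.3.3, numpy 2.4.6, matplotlib 3.10.9). Gene IDs were matched to RefSeq for 17289 genes, and coordinates and promoter sequences are those of RefSeq on GRCm38.p6. Protein sequences were not used here.

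The genes and lists were chosen with earlier results of these data known. Genes named were the 10 Hippo genes, the called genes and up to 4 with the smallest p of each list, Stk3, Stk4, Mob1a, Mob1b, Nf2, Ccn1, Ccn2 and Ankrd1, and the 3 genes most correlated with Yap1 and with Tead1. Marker genes are named as checks, and some genes that the rule names are not reported here. The alternatives were quantile normalization, unweighted TMM scaling (trimming 30% of log ratios and 5% of levels), a pseudocount of 0.1, no filter, a minimum mean of 2, the replicate number as a block, the same 6 libraries without it, a Y-linked covariate, log2(sum + 1), and leaving out each library.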

Additional observations from a re-analysis of the deposited data

Results flagged for a closer look

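Among the named genes in the 4 BALB/cJ libraries, 1 library stood apart for 1 gene. Frmd6, a FERM protein gene upstream of LATS, was at 18.69 in BALB/cJ 4 and at 15.66 to 15.70 in the other BALB/cJ libraries, so that the gap took up 0.987 of the range of the group. Of 37 genes examined in this way, chance alone flags about 1 in 20 groups of values. The 3 BALB/cByJ libraries, at 12.15 to 13.48, lay below all of them.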

How the results depend on the processing

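No Hippo gene was called under any alternative. For 5 of them the sign changed with the setting. Wwtr1 lay above 0 with quantile normalization (0.00050), TMM scaling (0.059) and in the 6 libraries of shared number (0.0099 with or without the replicate block), Tead1 likewise (0.021, 0.057 and 0.042), and Tead2 with TMM scaling (0.0020). With the Y-linked covariate Tead3 was at -0.086 and Tead4 at -0.0010. In the 6 libraries Mob1b was at 0.074. Leaving out single libraries gave log2 fold changes of -0.075 to 0.010 for Wwtr1, -0.10 to 0.098 for Tead1, -0.17 to 0.021 for Tead2, -0.051 to 0.11 for Tead3, -0.011 to 0.091 for Tead4, -0.28 to 0.17 for Mob1b and -0.33 to 0.032 for Ccn1.

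Over all genes, 98 were called higher and 112 lower in BALB/cByJ. These counts were 23 and 16 without the filter, 108 and 49 with quantile normalization, 137 and 59 with TMM scaling, 38 and 20 with the replicate block, 50 and 32 in the same 6 libraries without it, and 25 and 21 with the Y-linked covariate. Without single libraries they ran from 36 to 85 higher (lowest without BALB/cByJ 1, and 38 and 50 without BALB/cByJ 3 and BALB/cJ 4) and from 28 to 105 lower (lowest without BALB/cByJ 1, and 38, 32 and 58 without BALB/cByJ 3, BALB/cJ 4 and BALB/cJ 3). Called targets numbered 0 without the filter and with the covariate, 2 with a mean of at least 2 and in the 6 libraries without block, and 1 to 2 without single libraries. The causes were not tested. Same-numbered libraries of the strains did not vary together (correlations of -0.19, -0.26 and -0.050), and none correlated best with its own number. The numbers thus gave no sign of pairing, which 3 numbered pairs cannot exclude.

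With 3 and 4 pools, differences of the size seen for Sav1, Lats1, Lats2 and Vgll4 (-0.23 to -0.28) had 95% intervals lying between -0.55 and 0.020, and mRNA levels of whole ventricle give no phosphorylation or location of YAP.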
